A study of Mus musculus with 24 samples.

Results

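Loss of Atm was compared between the CD8 and CD4 T cells of mice without a tumour. For each gene, the difference between KO and WT mice in CD8 cells was set against the same difference in CD4 cells, and a log2 difference below 0 means that the KO value was lower relative to WT in CD8 than in CD4 cells. The comparison used 12 of the 24 libraries of the series, 3 in each of 4 groups, and 12677 of the 34113 genes in the deposited table had enough counts to be tested. The 12 libraries were taken by their labels (genotype, co-receptor and no transplant). The groups were CD8 KO (CD8 T cells of Atm-/- mice), CD8 WT (CD8 T cells of Atmwt/wt mice), CD4 KO and CD4 WT, all from the spleen of C57BL/6N mice with no transplant. Each library was a pool, with 2 mice in each of the 3 KO pools and 3, 2 and 2 mice in the WT pools, and the CD8 and CD4 libraries of a pool carried the same mouse identifiers. The other 12 libraries of the series came from mice that had received B-cell lymphoma cells. The Atm allele, the ages of the mice, and how CD4 and CD8 cells were separated after the T cell isolation kit are not given in the sources used here.

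Atm encodes a kinase that is activated by DNA double-strand breaks and signals to p53 and the repair machinery. It is needed when T cell receptor genes are cut and joined in the thymus, and loss of it lowers T cell numbers in mice and people. Mice without it develop thymic lymphoma, and people with ataxia-telangiectasia have a raised risk of several lymphoid cancers. CD8 cells are mostly cytotoxic, CD4 cells are mostly helper cells and include the regulatory T cells, and naive cells of both kinds recirculate through the spleen.

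Expression is given in CPM, which are counts scaled to a common library total with trimmed-mean factors, and each difference (log2) is followed by its standard error. A gene passed at an adjusted p under 0.05 (edgeR quasi-likelihood test, Benjamini-Hochberg adjustment over all genes tested), and the words rose, fell, higher and lower are used of fitted differences that passed. The test of the difference compared CD8 with CD4 within pools, with 3 pools a genotype. The replicates are pools of mice. For the difference and for CD8 against CD4, p-values measure how the CD8 to CD4 step varies between pools of a genotype. The level of each pool is taken out there. For KO against WT they measure the spread between libraries of a group, and the CD8 and CD4 libraries of a pool count as separate. In both, information on spread is shared over genes. Library totals ran from 6470482 to 10051550 counts, with 15263 to 17707 genes detected. CD8 KO 1 stood apart: it had the most genes detected at a total of 6541484, and 65.9 CPM of the Y-linked gene Kdm5d where CD4 KO 1, labelled with the same mice, had 1.04 CPM. The 4 Y-linked genes together summed to 69.7 CPM in CD8 KO 1 and 3.61 CPM in CD4 KO 1. Kdm5d thus made up most of the sum in CD8 KO 1, and the other Y-linked genes were low in both libraries. Without KO pool 1, 135 genes passed in place of 55, and 53 of the 55 were among them (all but Fndc5 and Gramd4). In bulk RNA, fewer cells of a type and less RNA per cell cannot be told apart.

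The labels were checked first. Atm stood at 88.9, 108 and 112 CPM in CD8 KO and at 216, 201 and 190.1 CPM in CD8 WT libraries, and at 79.3, 84.6 and 81.8 CPM in CD4 KO and 189, 187 and 152 CPM in CD4 WT libraries. Every KO library was below every WT library of the same cell type. Atm fell in CD8 KO by 0.97 ± 0.11 (adjusted p = 0.00136) and in CD4 KO by 1.10 ± 0.11 (adjusted p = 0.000774), and the difference between these effects was 0.12 ± 0.13 (adjusted p = 0.837). The libraries hold tags of transcript 3′ ends, and whether these tags lie outside the disrupted part cannot be told without the allele. Cd8a averaged 447 ± 21.0 CPM in CD8 KO, 505 ± 46.6 CPM in CD8 WT, 7.64 ± 1.36 CPM in CD4 KO and 8.46 ± 3.60 CPM in CD4 WT libraries (SD, n = 3 each), with a difference of -0.07 ± 0.33 (adjusted p = 0.971). Cd8b1 had a difference of 0.45 ± 0.18 (adjusted p = 0.4), Cd4 of -0.39 ± 0.64 (adjusted p = 0.906) and Zbtb7b, the transcription factor of CD4 commitment, of 0.57 ± 0.55 (adjusted p = 0.804). The co-receptor genes thus gave each library the identity on its label, and none of them had a KO effect that differed between CD8 and CD4 cells past the threshold.

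The KO effect differed between CD8 and CD4 cells for 55 genes, 0.434% of those tested. It was lower in CD8 for 52 of them (0.41%) and higher for 3 (0.0237%). At an unadjusted p under 0.05 there were 1307 genes (10.3%), and the median difference over all genes was -0.02. Between KO and WT, 239 genes passed in CD8 cells (1.89%; 117 higher, 122 lower) and 840 in CD4 cells (6.63%; 543 higher, 297 lower). These counts ranged widely when 1 pool was left out: without KO pool 1 they were 99 in CD8 and 434 in CD4, without KO pool 2 89 and 214, and without KO pool 3 46 and 26, where the order of the cell types turned. Without WT pool 1 they were 135 and 381, without WT pool 2 357 and 366, and without WT pool 3 151 and 858. Y-linked genes summed to 69.7, 4.04 and 77.7 CPM in CD8 KO and 63.1, 208.5 and 131 CPM in CD8 WT libraries. In CD4 they summed to 3.61, 2.81 and 66.8 CPM in KO and 77.3, 233 and 140 CPM in WT libraries. Their KO effect had a median of -2.165 in CD8 and -2.724 in CD4, and none of the 4 passed. The part of sex in KO against WT was not tested. Seen across cell types, 1566 genes differed between CD8 and CD4 cells of KO mice (12.4%) and 743 between those of WT mice (5.86%). These comparisons share libraries with the difference of differences, so their counts are given side by side only.

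The count of 55 depended on the pools and on the model. Leaving out 1 pool gave from 12 genes (without KO pool 3) to 135 (without KO pool 1), with 25 without KO pool 2, 80 without WT pool 1, 16 without WT pool 2 and 42 without WT pool 3. Itgae, Ebf1, Ly6d, Ms4a1, Izumo1r, H2-T23, 1700025G04Rik, Ggta1 and Gtpbp2 were among those that passed in each of these 6 fits. A fit without the pool block called 10 of the 55, and with a B cell score as a covariate 1 gene passed and none of the 55. The level of B cell genes overlapped between KO and WT in CD8 libraries, while their CD8/CD4 ratio within a pool separated the KO from the WT pools.

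**Figure D1:**
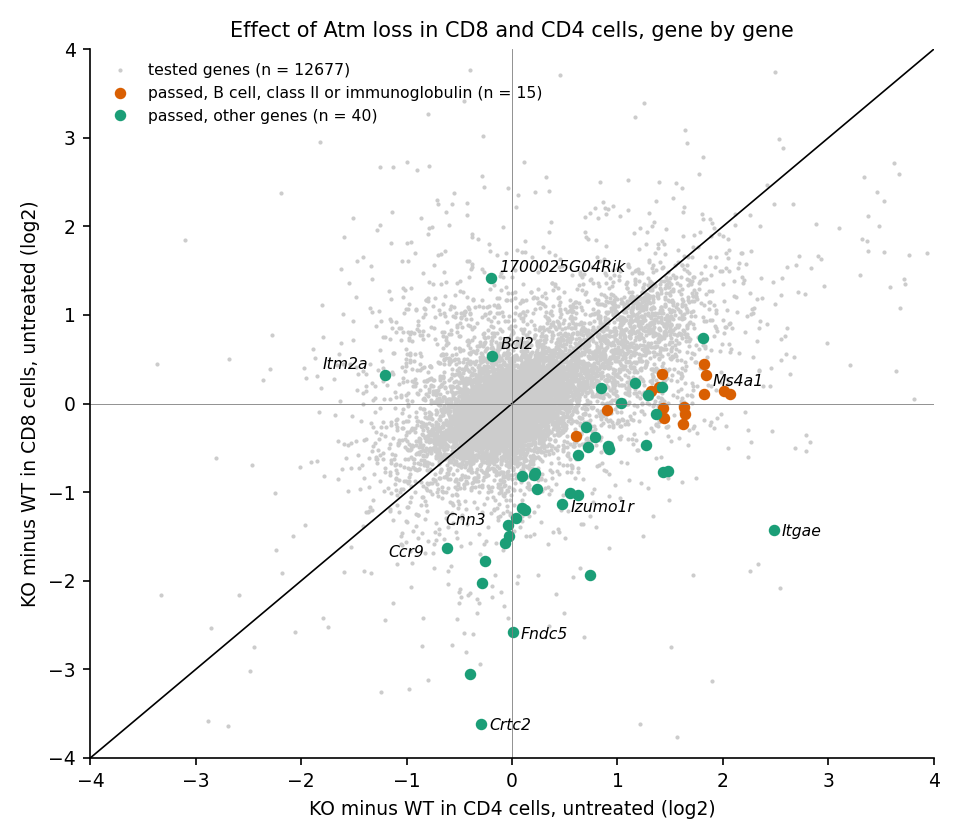
Each point is a gene, with KO minus WT in CD4 cells on the x axis and in CD8 cells on the y axis, both as log2 differences in untreated mice. The line marks equal effects. Large points are the 55 genes that passed (15 B cell, class II or immunoglobulin genes in orange, 40 others in green); 52 lie below the line, among them Itgae, which was lower in KO among CD8 cells and higher in KO among CD4 cells.

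Of the 52 genes with a negative difference, 30 had a fitted KO effect below 0 in CD8 and above 0 in CD4, 14 were above 0 in both and 8 below 0 in both. Taken 1 cell type at a time, Itgae and Izumo1r were lower in CD8 KO and higher in CD4 KO, both past the threshold. Another 14 genes passed in CD4 alone, where they were higher in KO, and 4 passed in CD8 alone, where they were lower in KO. Ccr9 was lower in KO in both. The other 31 passed in neither cell type on their own and only in the difference within pools. The within-pool CD8/CD4 ratios of the KO and WT pools did not overlap for any of the 55 genes, against 16.5% of all genes tested (2091). The test that called the 55 compared CD8 with CD4 in these same pools, so this separation is no further support for them.

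The largest difference belonged to Itgae (GRCm38, chromosome 11, 73090583 to 73147446, plus strand), which encodes the integrin αE chain (CD103), the partner of β7 in a receptor for E-cadherin and a marker of naive CD8 cells, of tissue-resident cells and of a part of the regulatory T cells. In CD8 cells it had 9.15, 14.7 and 13.2 CPM in the CD8 KO libraries, against 39.8, 28.9 and 31.4 CPM in the CD8 WT libraries. In CD4 cells it had 5.32, 6.62 and 5.10 CPM in the CD4 KO libraries, against 0.876, 0.728 and 1.48 CPM in the CD4 WT libraries. KO was below WT in CD8 and above WT in CD4, with no overlap in either. The KO effect was -1.42 ± 0.22 (adjusted p = 0.00499) in CD8 and 2.48 ± 0.29 (adjusted p = 0.00161) in CD4, and the difference was -3.93 ± 0.33 (adjusted p = 0.00156), 95% interval -4.66 to -3.20. Itgb7, which encodes the β7 partner, had no such difference (-0.08, adjusted p = 0.89). Itgae passed in each of the 6 fits that left out a pool. Haspin lies within Itgae on the opposite strand, and its difference was 0.37 with adjusted p = 0.87.

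Ccr9 (GRCm38, chromosome 9, 123678439 to 123784330, plus strand), the receptor for the chemokine CCL25 that guides cells to the small intestine and thymus, fell in both cell types, and more in CD8. In CD8 cells it had 70.3, 89.2 and 93.4 CPM in the CD8 KO libraries, against 311, 225 and 251 CPM in the CD8 WT libraries. Its CD4 values were 17.4, 17.9 and 17.2 CPM in the CD4 KO libraries, against 27.5, 22.4 and 31.0 CPM in the CD4 WT libraries. KO libraries were below all WT libraries in both. The KO effect was -1.64 ± 0.15 (adjusted p = 0.000144) in CD8 and -0.62 ± 0.16 (adjusted p = 0.0368) in CD4, with a difference of -1.02 ± 0.17 (adjusted p = 0.0356). Ccr9 passed in 2 of the 6 fits that left out a pool (adjusted p up to 0.13), failing without KO pool 2 or 3 or WT pool 1 or 2. Of the 21 chemokine and homing receptor genes tested, Ccr9 and Itgae were lower and none higher, with a list median of -0.09 beside -0.02 over all genes.

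**Figure D2:**
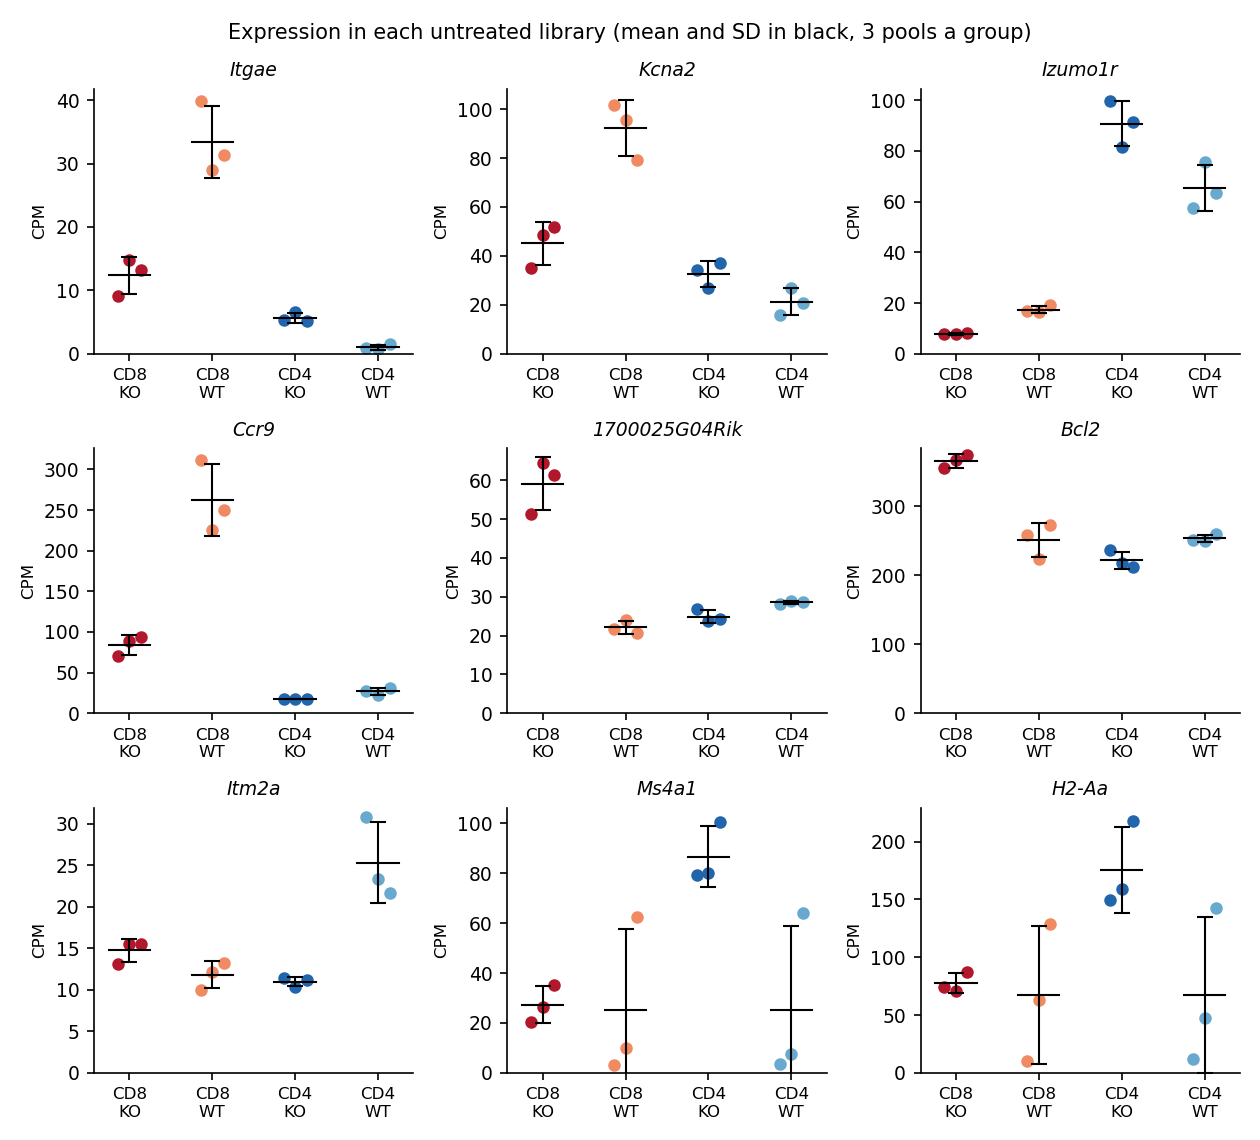
CPM of 9 genes in each untreated library, in the order CD8 KO, CD8 WT, CD4 KO and CD4 WT; points are libraries, and the black line and bar are the mean and SD of 3 pools. Itgae, Kcna2 and Ccr9 were lower in CD8 KO than in CD8 WT, 1700025G04Rik and Bcl2 were higher in CD8 KO than in the other groups, and Ms4a1 and H2-Aa were highest in CD4 KO, with a wide spread among WT pools.

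Gpr55, Eng and Kcna2, which also encode membrane proteins, had negative differences. Gpr55, a receptor for lysophosphatidylinositol, had 3.97, 3.92 and 5.46 CPM in the CD8 KO libraries, against 7.33, 8.14 and 7.38 CPM in the CD8 WT libraries. The CD4 libraries gave 7.02, 7.22 and 7.37 CPM in the CD4 KO libraries, against 1.75, 3.03 and 3.26 CPM in the CD4 WT libraries. Again KO lay below WT in CD8 and above it in CD4, with a difference of -2.24 ± 0.37 (adjusted p = 0.0356). Eng, endoglin, a co-receptor of the TGF-β family, had 7.78, 8.68 and 9.59 CPM in the CD8 KO libraries, against 16.8, 13.9 and 13.4 CPM in the CD8 WT libraries. In CD4 cells it had 3.42, 3.61 and 3.04 CPM in the CD4 KO libraries, against 1.53, 0.849 and 1.19 CPM in the CD4 WT libraries. KO was below WT in CD8 and above it in CD4 for Eng as well, with a difference of -2.26 ± 0.35 (adjusted p = 0.0229). Kcna2, a voltage-gated potassium channel, had 34.9, 48.6 and 51.7 CPM in the CD8 KO libraries, against 102, 95.7 and 79.3 CPM in the CD8 WT libraries. Its CD4 values were 34.2, 26.7 and 37.0 CPM in the CD4 KO libraries, against 16.0, 27.1 and 20.6 CPM in the CD4 WT libraries. Kcna2 had a difference of -1.67 ± 0.27 (adjusted p = 0.0464). KO was below WT in every CD8 library, at -1.03 ± 0.20 (adjusted p = 0.0199), and the CD4 effect of 0.62 ± 0.20 (adjusted p = 0.0846) did not pass, with overlapping groups. These 3 genes depended on single pools, as Gpr55 passed in 1 of the 6 fits that left out a pool (adjusted p up to 0.123), Eng in 2 of the 6 fits that left out a pool (adjusted p up to 0.107) and Kcna2 in 3 of the 6 fits that left out a pool (adjusted p up to 0.226). KO pool 3 and WT pools 2 and 3 were needed for each of them, and KO pool 2 for Gpr55 and Eng. Gpr55 also failed without WT pool 1.

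Genes known from regulatory T cells formed a second group. Izumo1r (GRCm38, chromosome 9, 14885814 to 14903949, minus strand) encodes folate receptor 4, a surface protein of regulatory and other antigen-experienced CD4 cells. In CD8 cells it had 7.93, 7.61 and 8.38 CPM in the CD8 KO libraries, against 16.9, 16.3 and 19.1 CPM in the CD8 WT libraries. Among CD4 cells it stood at 99.5, 81.5 and 91.3 CPM in the CD4 KO libraries, against 57.5, 75.5 and 63.2 CPM in the CD4 WT libraries. Neither pair of groups overlapped. The KO effect was -1.13 ± 0.14 (adjusted p = 0.00179) in CD8 and 0.47 ± 0.12 (adjusted p = 0.0367) in CD4, and the difference of -1.60 ± 0.18 (adjusted p = 0.00514) passed in all 6 fits that left out a pool. Ikzf2, which encodes the transcription factor Helios, had 22.9, 27.3 and 24.6 CPM in the CD8 KO libraries, against 40.4, 36.5 and 35.7 CPM in the CD8 WT libraries. The CD4 libraries gave 104, 108 and 112 CPM in the CD4 KO libraries, against 57.4, 94.1 and 58.2 CPM in the CD4 WT libraries. The WT pool 2 value in CD4 was well above the other WT values and still below the KO libraries. Its difference was -1.25 ± 0.21 (adjusted p = 0.0432), and it passed in 2 of the 6 fits that left out a pool (adjusted p up to 0.224), failing without KO pool 2 or 3 or WT pool 1 or 3.

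Over the 18 regulatory T cell genes tested, these 3 (with Itgae) passed, 17 had a negative difference, and the median was -0.72 beside -0.02 over all genes. Set apart by cell type, 6 were higher in KO among CD4 cells and 3 lower in KO among CD8 cells. Beside these counts, 6.63% of all genes tested passed in CD4 and 1.89% in CD8. Their summed level was 253, 256 and 237 CPM in the CD8 KO libraries and 250, 262 and 275 CPM in the CD8 WT libraries, and 792, 729.7 and 756 CPM in the CD4 KO libraries and 468, 576 and 504 CPM in the CD4 WT libraries. The CD4 KO libraries were above all CD4 WT libraries, and the CD8 groups overlapped. Foxp3, the lineage factor, had a difference of -0.94 that did not pass (adjusted p = 0.52). Of 13 follicular helper genes none passed, with a median of -0.34. Among their members Icos, a co-stimulatory receptor, had 46.1, 48.4 and 38.7 CPM in the CD8 KO libraries, against 53.1, 45.3 and 47.7 CPM in the CD8 WT libraries, and in CD4 cells 137, 119.8 and 111 CPM in the CD4 KO libraries, against 87.4, 88.8 and 72.8 CPM in the CD4 WT libraries. The CD4 groups did not overlap and the CD8 groups did, and the difference of -0.70 ± 0.15 (adjusted p = 0.0724) missed the threshold. Rora, a nuclear receptor of helper and innate-like cells, had a difference of -1.20 ± 0.17 (adjusted p = 0.0123), with 52.0, 67.8 and 45.8 CPM in the CD4 KO libraries, against 31.6, 29.6 and 39.6 CPM in the CD4 WT libraries. In CD8 cells Rora had 18, 18.5 and 14.9 CPM in the CD8 KO libraries, against 21.5, 23.2 and 27.4 CPM in the CD8 WT libraries. KO lay above WT in CD4 and below it in CD8. Rora passed in 2 of the 6 fits that left out a pool (adjusted p up to 0.0848), failing without KO pool 2 or 3 or WT pool 2 or 3. How many regulatory T cells each library held was not measured.

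Only 3 genes had a positive difference that passed. 1700025G04Rik (GRCm38, chromosome 1, 151852403 to 152090125, minus strand), a gene of unassigned function by its symbol, had 51.4, 64.5 and 61.3 CPM in the CD8 KO libraries, against 21.7, 23.9 and 20.7 CPM in the CD8 WT libraries. In CD4 cells it had 26.8, 23.8 and 24.2 CPM in the CD4 KO libraries, against 28.0, 29.0 and 28.6 CPM in the CD4 WT libraries. It was high in the CD8 KO libraries and at a like level in the other groups. The KO effect was 1.42 ± 0.12 (adjusted p = 6.03e-05) in CD8 and -0.20 ± 0.11 (adjusted p = 0.308) in CD4. The difference was 1.61 ± 0.18 (adjusted p = 0.00514), 95% interval 1.22 to 2.00, and it passed in all 6 fits that left out a pool. Bcl2 (GRCm38, chromosome 1, 106538178 to 106714274, minus strand), which keeps lymphocytes alive by blocking the mitochondrial path of apoptosis, had 355, 367 and 375 CPM in the CD8 KO libraries, against 258, 224 and 272 CPM in the CD8 WT libraries. Its CD4 values were 236, 218 and 212 CPM in the CD4 KO libraries, against 251, 249 and 259.6 CPM in the CD4 WT libraries. Bcl2 rose in CD8 KO, at 0.54 ± 0.09 (adjusted p = 0.0106), and the KO values in CD4 lay below the WT values without passing, at -0.19 ± 0.09 (adjusted p = 0.217). Its difference was 0.74 ± 0.13 (adjusted p = 0.0447). Itm2a, which encodes a membrane protein of developing and activated T cells, had 13.1, 15.6 and 15.5 CPM in the CD8 KO libraries, against 10.02, 12.2 and 13.2 CPM in the CD8 WT libraries. Among CD4 cells it stood at 11.4, 10.3 and 11.2 CPM in the CD4 KO libraries, against 30.9, 23.4 and 21.7 CPM in the CD4 WT libraries. The gene fell in CD4 KO, at -1.21 ± 0.16 (adjusted p = 0.00412), and the difference was 1.51 ± 0.26 (adjusted p = 0.0432). Bcl2 passed in 2 of the 6 fits that left out a pool (adjusted p up to 0.251) and Itm2a in 2 of the 6 fits that left out a pool (adjusted p up to 0.224). Both failed without KO pool 2 or 3 or WT pool 2 or 3.

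Genes just outside the threshold were named on the positive side only, where few genes passed. They were chosen for a positive difference and for KO and WT ratios that do not overlap, so their shared sign is no result. Bbc3, which encodes the pro-apoptotic p53 target PUMA, had 144, 109.6 and 116 CPM in the CD8 KO libraries, against 74.5, 73.8 and 89.5 CPM in the CD8 WT libraries. The CD4 libraries gave 51.9, 42.6 and 45.6 CPM in the CD4 KO libraries, against 44.3, 42.9 and 67.5 CPM in the CD4 WT libraries. KO exceeded WT in every CD8 library and the CD4 groups overlapped, with a difference of 0.75 ± 0.14 (adjusted p = 0.0537). Txk, a kinase of the Tec family downstream of the T cell receptor, had a difference of 0.75 ± 0.14 (adjusted p = 0.0511), with an effect of 0.13 ± 0.12 (adjusted p = 0.583) in CD8 and -0.62 ± 0.12 (adjusted p = 0.0135) in CD4. The other named genes in this range were Bbs9 (1.27 ± 0.23), Pxylp1 (1.06 ± 0.20), Nacc2 (1.24 ± 0.25), Hid1 (0.80 ± 0.16), Crybg1 (1.02 ± 0.21), Itgb3 (0.79 ± 0.17), Gramd3 (0.66 ± 0.14) and Abcb9 (0.60 ± 0.13), with adjusted p from 0.0505 to 0.0851. None of the 10 passed.

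Of 24 immediate early genes, which receptor signalling induces, Egr1 alone passed. This gene, an immediate early transcription factor, had 57.5, 68.7 and 73.2 CPM in the CD8 KO libraries, against 132, 89.1 and 124 CPM in the CD8 WT libraries. In CD4 cells it had 149, 176 and 146 CPM in the CD4 KO libraries, against 141, 92.1 and 171 CPM in the CD4 WT libraries. The CD8 KO libraries were the lowest of all 12, and the CD4 groups overlapped. The difference was -1.03 ± 0.16 (adjusted p = 0.0229), which did not pass without KO pool 2, KO pool 3 or WT pool 2 (adjusted p up to 0.0999). Its relatives Egr2 (-1.18 ± 0.33, adjusted p = 0.181) and Egr3 (-0.89 ± 0.26, adjusted p = 0.202) did not pass. The median of the list was -0.18. Of 26 genes of the T cell receptor complex and its signalling none passed, 20 were positive and the median was 0.17.

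Of 32 mitosis genes 14 rose and 1 fell in CD4 KO, while none rose and 1 fell in CD8 KO. The fitted KO effect was above 0 for 30 of the 32 in CD4 (median 1.324) and for 26 in CD8 (median 0.715). Over all genes tested, 6.63% passed between KO and WT in CD4 and 1.89% in CD8. Birc5, survivin, a protein of dividing cells, had 27.5, 63.2 and 31.1 CPM in the CD8 KO libraries, against 29.2, 22.5 and 21.5 CPM in the CD8 WT libraries. Its CD4 values were 46.8, 116 and 50.0 CPM in the CD4 KO libraries, against 19.9, 20.4 and 20.5 CPM in the CD4 WT libraries. KO pool 2 was the highest of the KO pools in both cell types, and the CD4 groups did not overlap. The KO effect was 0.74 ± 0.40 (adjusted p = 0.343) in CD8 and 1.81 ± 0.41 (adjusted p = 0.0352) in CD4, and the difference was -1.04 ± 0.17 (adjusted p = 0.0356). It passed in 1 of the 6 fits that left out a pool (adjusted p up to 0.128), in the fit without KO pool 1. Birc5 was the 1 gene called of 32 mitosis genes, whose median was -0.56, and the count ran from 0 to 4 without 1 pool. The summed level of the list was 894, 1191 and 878 CPM in the CD8 KO libraries and 1227, 1163 and 1003 CPM in the CD8 WT libraries, and 871, 1800 and 1071 CPM in the CD4 KO libraries and 1326, 1417 and 1000 CPM in the CD4 WT libraries, so that the groups overlapped in both cell types. Of the 34 S phase genes 10 rose in CD4 KO and 1 in CD8 KO, and none passed in the difference (median -0.18). Their KO effect was above 0 for 33 genes in CD4 (median 0.524) and for 31 in CD8 (median 0.372). Among the KO pools, erythroid genes had their highest sums in pool 2 as well, with 4906, 34070 and 18830 CPM in CD4 KO, against 826, 477 and 9105 CPM in CD4 WT. Of that list Epor and Klf1 rose in CD4 KO, with a list median of 2.61, and its part in the mitosis values was not tested.

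The most numerous group held genes of B cells and of MHC class II, which are markers of cells other than T cells. Of 25 B cell genes tested 10 were lower (Cd22, Ebf1, Ighd, Ighm, Iglc2, Ly6d, Ms4a1, Mzb1, Pou2af1 and Spib), 25 had a negative difference, and the median was -1.23. Of 10 class II genes 4 were lower (Ciita, H2-Aa, H2-DMb2 and H2-Ob), with a median of -1.13. Set beside the 0.41% of genes called negative, these lists held 14 of the 52 negative calls, and Iglc3, an immunoglobulin constant gene on neither list, was a further one. Ms4a1, which encodes CD20, had 20.4, 26.5 and 35.1 CPM in the CD8 KO libraries, against 3.14, 9.91 and 62.5 CPM in the CD8 WT libraries. Among CD4 cells it stood at 79.2, 80.3 and 101 CPM in the CD4 KO libraries, against 3.50, 7.52 and 64.2 CPM in the CD4 WT libraries. The WT pools differed widely from each other and alike in both cell types, and each KO pool was higher in CD4 than in CD8. Its difference was -1.76 ± 0.20 (adjusted p = 0.00514). Ebf1, the factor that specifies B cells, had -1.90 ± 0.22 (adjusted p = 0.00514), and Ly6d, a surface marker of early B cells, -1.76 ± 0.20 (adjusted p = 0.00514). Ms4a1, Ebf1 and Ly6d passed in all 6 fits that left out a pool. None of the 14 passed in the fit without the pool block, where the spread between WT pools counts as error.

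The summed level of the B cell list shows the same pools. It was 729.7, 699 and 899.6 CPM in the CD8 KO libraries and 288, 634 and 1247 CPM in the CD8 WT libraries, and 1660, 1680 and 2000 CPM in the CD4 KO libraries and 300.4, 554 and 1249 CPM in the CD4 WT libraries. All KO pools had lower levels in CD8 than in CD4, and the WT pools had like levels in both. The CD8/CD4 ratio (log2) was -1.19, -1.27 and -1.15 in the KO pools and -0.06, 0.20 and -0.002 in the WT pools. For the class II list the ratio was -1.01, -1.07 and -1.08 in the KO pools and -0.08, 0.50 and 0.003 in the WT pools. In no library were Ms4a1, Cd79a or Pax5 at 0, and Ms4a1 ran from 3.14 to 101 CPM. The count of B cell genes called ran from 3 without KO pool 3 to 15 without KO pool 1, and was 5 without KO pool 2 or WT pool 2. For class II genes it ran from 1 to 6, at 1 without KO pool 2, KO pool 3 or WT pool 2. The share of B cells in each library was not measured, and its part in these differences was not tested.

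H2-Aa encodes a chain of the class II molecule itself, H2-DMb2 and H2-Ob encode chains of the chaperones that load or regulate loading of peptide, and Ciita is the coactivator that turns the set on. Class II promoters share an inverted CCAAT box (the Y box, bound by NF-Y) near the start site. The stretches before the start of the 3 genes with a promoter entry are shown because these genes moved together (RefSeq, GRCm38.p6, 150 bases before the annotated start, on the strand of the gene). The capitals mark ATTGG, which lies 48 bases before the start in H2-Aa, 90 in H2-DMb2 and 57 in H2-Ob.
H2-Aa: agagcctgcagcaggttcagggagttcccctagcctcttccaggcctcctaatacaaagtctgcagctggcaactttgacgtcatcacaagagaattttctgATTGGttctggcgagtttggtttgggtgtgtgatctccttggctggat
H2-DMb2: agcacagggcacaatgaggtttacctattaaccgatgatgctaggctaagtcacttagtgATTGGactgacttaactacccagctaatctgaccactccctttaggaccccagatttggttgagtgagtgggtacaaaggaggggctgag
H2-Ob: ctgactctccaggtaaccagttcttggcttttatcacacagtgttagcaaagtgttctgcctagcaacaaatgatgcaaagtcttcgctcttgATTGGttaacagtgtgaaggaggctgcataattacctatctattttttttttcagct
The stretches lie at chr17:34287824-34287973, minus strand for H2-Aa, chr17:34145099-34145248, plus strand for H2-DMb2 and chr17:34238755-34238904, plus strand for H2-Ob. ATTGG or its reverse complement CCAAT occurred in the same 150 bases of 24.5% of 32851 promoters in the table, and a match is a description of the letters only. H2-Aa had 74.6, 70.5 and 87.3 CPM in the CD8 KO libraries, against 10.5, 62.8 and 129 CPM in the CD8 WT libraries. The CD4 libraries gave 149, 159 and 218 CPM in the CD4 KO libraries, against 12.2, 47.7 and 142 CPM in the CD4 WT libraries. The WT pools spread widely here as well, and the CD4 KO libraries lay above all others. Differences were -1.21 ± 0.18 (adjusted p = 0.0166) for H2-Aa, -1.66 ± 0.23 (adjusted p = 0.0113) for H2-DMb2, -0.999 ± 0.18 (adjusted p = 0.0479) for H2-Ob and -1.64 ± 0.28 (adjusted p = 0.0424) for Ciita. H2-Aa failed without KO pool 2 or 3 or WT pool 2, Ciita without the same pools, H2-DMb2 without WT pool 3, and H2-Ob passed only without KO pool 1 (adjusted p up to 0.123, 0.13, 0.076 and 0.247).

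**Figure D3:**
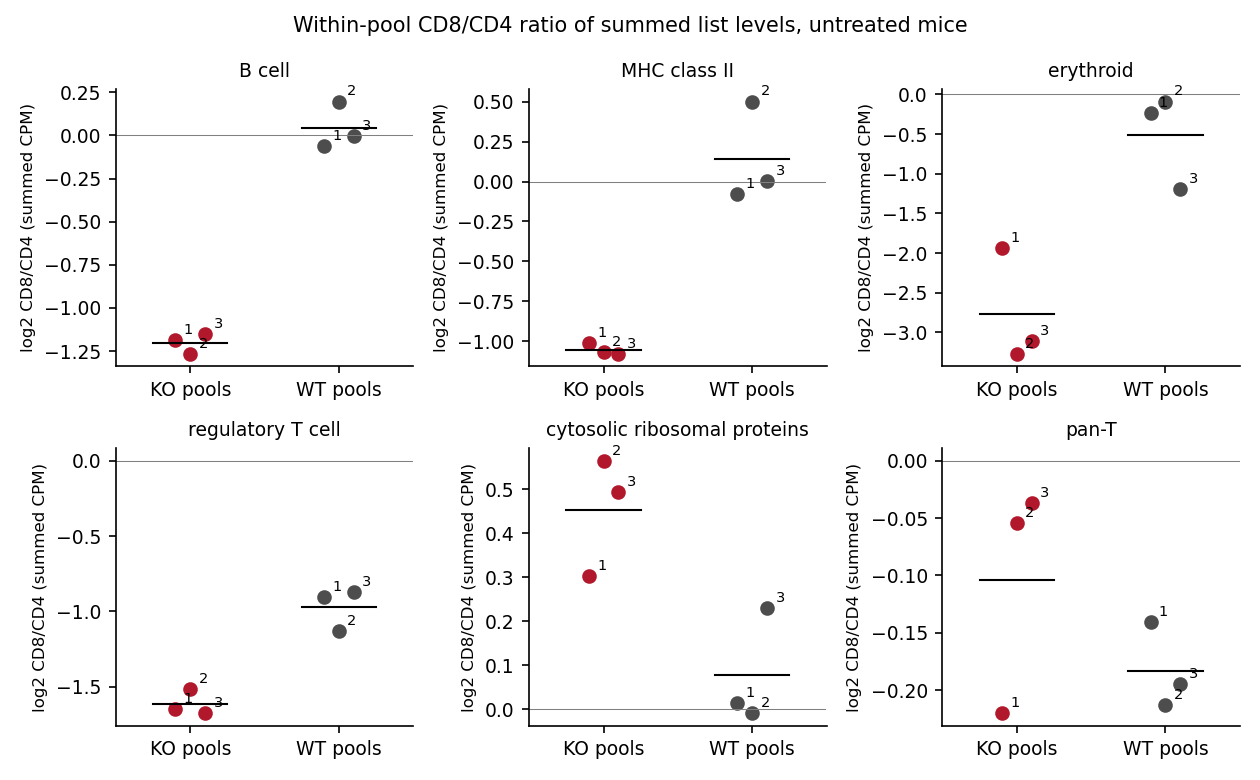
Log2 ratio of CD8 to CD4 of the summed CPM of a gene list within each untreated pool, KO pools on the left and WT pools on the right; numbers are pools and lines are means. KO and WT pools did not overlap for the B cell, class II, erythroid, regulatory T cell and ribosomal lists, and did for the pan-T list. Some lists not drawn, among them cytokine receptors and follicular helper genes, did not overlap either.

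Red cell genes were another list with a gap between pools. Of 12 erythroid genes none passed, 12 had a negative difference and the median was -2.05. Their summed level was 1284, 3535 and 2181 CPM in the CD8 KO libraries and 702, 448 and 3991 CPM in the CD8 WT libraries, and 4906, 34070 and 18830 CPM in the CD4 KO libraries and 826, 477 and 9105 CPM in the CD4 WT libraries. It was highest in CD4 KO 2 and varied strongly within each group. The CD8/CD4 ratio (log2) was -1.93, -3.27 and -3.11 in the KO pools and -0.24, -0.09 and -1.19 in the WT pools. Without KO pool 1 the count was 5, and DESeq2 also called 5. This ratio separated the KO from the WT pools as that of the B cell list did, and its part in the other results was not tested. Such a gap was not particular to these lists. The cytokine receptor list had ratios of 0.329, 0.485 and 0.511 in the KO pools and 0.106, 0.091 and 0.053 in the WT pools. The follicular helper, inhibitory receptor and interferon gamma lists separated the pools too. Taken singly, 16.5% of all genes tested did so. Neutrophil genes had a median of -0.45 (none of 14 passed), while monocyte and macrophage genes (25 tested, median -0.02) and natural killer cell genes (15, median -0.15) had none called. Pan-T genes (20 tested, none called) had a median of 0.12.

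A further set of genes had negative differences and levels that varied several-fold between pools. Crtc2, a coactivator of the CREB transcription factor, had 0.610, 3.56 and 0.364 CPM in the CD8 KO libraries, against 7.18, 17.4 and 33.2 CPM in the CD8 WT libraries. In CD4 cells it had 2.56, 14.1 and 8.03 CPM in the CD4 KO libraries, against 2.41, 8.49 and 19.7 CPM in the CD4 WT libraries. The groups overlapped in CD4, and every KO library in CD8 was below every WT library. The difference was -3.61 ± 0.49 (adjusted p = 0.0146), and the CD8 effect alone was -3.62 ± 1.10 (adjusted p = 0.131). Fndc5, the precursor of irisin, had 5.03, 16.2 and 9.84 CPM in the CD8 KO libraries, against 15.3, 107 and 65.3 CPM in the CD8 WT libraries. Its CD4 values were 16.0, 53.7 and 30.5 CPM in the CD4 KO libraries, against 14.1, 37.9 and 48.4 CPM in the CD4 WT libraries. In CD8 the groups overlapped at 16.2 CPM in KO pool 2 and 15.3 CPM in WT pool 1, and WT pool 1 had the lowest WT value in both cell types. Its difference was -2.42 ± 0.34 (adjusted p = 0.0356). Ccdc50-ps, a pseudogene that can share reads with its parent Ccdc50, had -2.55 ± 0.39 (adjusted p = 0.0403), and Mrps28, a protein of the mitochondrial ribosome, -1.66 ± 0.30 (adjusted p = 0.0464). Without a pool, Crtc2 passed in 4 fits (not without WT pool 2 or 3), Ccdc50-ps in 3 (not without KO pool 3 or WT pool 2 or 3), Fndc5 in 2 (not without any KO pool or WT pool 3) and Mrps28 in 1 (the fit without KO pool 1), with adjusted p up to 0.0999, 0.226, 0.205 and 0.228.

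Several of these genes followed the same order of pools. The order was seen in these values after the fit, so its share among these genes is no test of it. KO pool 1 was lowest and KO pool 2 highest among the KO pools in CD8 and in CD4 cells for 12 of the 37 negative genes outside the B cell, class II and immunoglobulin genes (Birc5, Car12, Ccdc50-ps, Cdk17, Fndc5, Ggta1, Gramd4, Gtpbp2, H2-T23, Mrps28, Nsmce3 and Spcs3), or 32.4%, against 5.66% of all genes tested. H2-T23, the nonclassical class I gene that encodes Qa-1, had 25.5, 38.7 and 25.5 CPM in the CD8 KO libraries, against 51.2, 67.6 and 85.2 CPM in the CD8 WT libraries. Among CD4 cells it stood at 40.7, 75.3 and 53.7 CPM in the CD4 KO libraries, against 37.7, 53.7 and 67.5 CPM in the CD4 WT libraries. The CD8 groups did not overlap and the CD4 groups did. Its difference of -1.28 ± 0.15 (adjusted p = 0.00559) passed in all 6 fits that left out a pool, as did those of Gtpbp2, a GTP-binding protein (-1.36 ± 0.16, adjusted p = 0.00592), and Ggta1, an enzyme that makes the alpha-galactose sugar group (-1.45 ± 0.18, adjusted p = 0.00779). H2-T23 was the 1 gene called of 16 class I genes, whose median was -0.27.

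The remaining genes that passed had differences from -2.69 for D830030K20Rik to -0.67 for Pou2f2. In 6 of them the CD4 part passed and KO was higher: Ehd1, a protein of endosome recycling (-1.03 ± 0.14), Ncf1, a subunit of the phagocyte oxidase (-1.53 ± 0.20), Chst15 (-1.40 ± 0.23), Gga2 (-0.92 ± 0.17), Pou2f2, the lymphocyte factor Oct-2 (-0.67 ± 0.12), and Sytl3 (-1.19 ± 0.21). Ehd1 showed the cleanest case, with 88.8, 88.1 and 89.4 CPM in the CD8 KO libraries, against 93.4, 90.6 and 82.0 CPM in the CD8 WT libraries. The CD4 libraries gave 56.3, 53.9 and 65.5 CPM in the CD4 KO libraries, against 27.1, 30.8 and 27.9 CPM in the CD4 WT libraries. CD8 KO and CD8 WT overlapped at like levels, and CD4 KO was above CD4 WT in every library. In 3 others the CD8 part passed and KO was lower: Cnn3, calponin 3 (-1.34 ± 0.17), Idi1, an enzyme of isoprenoid synthesis (-1.58 ± 0.29), and Twsg1, a modulator of BMP signals (-1.20 ± 0.21). Neither part passed for Bsdc1 (-1.56 ± 0.28), Car12, a carbonic anhydrase (-1.63 ± 0.27), Cdk17, a kinase (-0.95 ± 0.14), Gramd4 (-1.62 ± 0.24), Nsmce3, a subunit of the SMC5/6 complex (-1.42 ± 0.25), Pmepa1, a TGF-β target that restrains that pathway (-0.99 ± 0.18), and Spcs3, a subunit of signal peptidase (-1.08 ± 0.20). Nor did a part pass for Cd72, a surface protein of B cells (-1.22 ± 0.19), or Mef2c, a transcription factor of B and muscle cells (-1.32 ± 0.21). D830030K20Rik had 1.07, 0.832 and 0.486 CPM in the CD8 KO libraries, against 2.39, 3.30 and 3.33 CPM in the CD8 WT libraries. In CD4 cells it had 11.6, 25.8 and 18.6 CPM in the CD4 KO libraries, against 5.80, 15.3 and 12.6 CPM in the CD4 WT libraries. KO was below WT in CD8, and the CD4 groups overlapped. Each of these 19 genes lost the call in at least 1 fit that left out a pool. Ehd1, Cnn3 and Ncf1 failed without KO pool 3 or WT pool 2 only (adjusted p up to 0.099, 0.0789 and 0.0575).

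Members of the effector, heat shock, memory and naive lists changed with Atm loss in both cell types, and no member of these 4 lists passed in the difference. Between KO and WT, 1.89% of all genes tested passed in CD8 and 6.63% in CD4. Of 29 effector and cytotoxic genes 7 rose in CD8 KO and 9 in CD4 KO, with medians of 1.08 and 1.14, and none passed in the difference (median -0.11). Markers of other cells moved alongside, with no overlap of the groups: the summed level of NK cell genes ran from 795 to 994 CPM in CD8 KO, against 155 to 612 CPM in CD8 WT, and from 681 to 862 CPM in CD4 KO, against 151 to 471 CPM in CD4 WT. Monocyte and macrophage genes summed to 2185 to 2513 CPM in CD8 KO, against 568 to 2059 CPM in CD8 WT, and to 2688 to 3525 CPM in CD4 KO, against 1187 to 1911 CPM in CD4 WT. The KO effect had a median of 0.86 in CD8 (14 of 15 genes above 0) and 1.34 in CD4 (15 of 15) for NK cell genes, and of 1.01 and 1.21 (25 of 25 in both) for monocyte and macrophage genes. Of these markers Vsig4 was at 0 in 8 of the 12 libraries, and no other was at 0 in any. Their part in these effects was not tested. Gzmm, a granule protease, had 84.2, 117 and 109 CPM in the CD8 KO libraries, against 16.6, 28.9 and 18.4 CPM in the CD8 WT libraries, and in CD4 cells 4.65, 5.42 and 5.96 CPM in the CD4 KO libraries, against 2.63, 2.18 and 4.15 CPM in the CD4 WT libraries. KO exceeded WT in every library of both cell types, and the difference was 1.44 ± 0.33 (adjusted p = 0.123). Fasl, the ligand of the death receptor Fas, had a difference of 1.22 ± 0.29 (adjusted p = 0.114). Of 16 heat shock genes 9 rose in CD8 KO and 9 in CD4 KO, and none passed in the difference (median 0.02). Of 25 memory and activation genes 10 rose and 1 fell in CD8 KO and 12 rose in CD4 KO, and none passed in the difference (median 0.03). Of 20 naive and quiescence genes 2 fell in CD8 KO and 7 in CD4 KO, with none in the difference (median 0.01). A p above the threshold does not show equal effects: for Gzmm the interval of the difference was 0.69 to 2.18.

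The 58 cytosolic ribosomal protein genes had small differences that were positive for every member. None passed, 31 were positive at an unadjusted p under 0.05, and the median was 0.38 beside -0.02 over all genes. Their summed level was 173000, 176400 and 189800 CPM in the CD8 KO libraries and 166600, 195300 and 165500 CPM in the CD8 WT libraries, and 140300, 119200 and 134900 CPM in the CD4 KO libraries and 165000, 196500 and 141300 CPM in the CD4 WT libraries. CD4 KO libraries were below all others, with CD4 WT 3 the next lowest. Between CD8 and CD4 cells, 41 of the 58 genes were higher in CD8 in KO mice and none in WT mice. Of all genes tested, 12.4% passed in KO mice and 5.86% in WT mice, in either direction. The median difference of the list moved to 0.03 with the B cell score as a covariate. The CD8/CD4 ratio of that score separates KO from WT pools, so the fit removes most of the contrast by construction. None of 35 DNA damage signalling and repair genes passed (median 0.02) and none of 29 p53 targets (median -0.04), where 0.434% of all genes did. Among p53 targets Bbc3 was near the threshold, and DESeq2 called 1 gene of the list. For the DNA damage list KO against WT gave 1 fall in CD8 and 2 rises and 4 falls in CD4, where 1.89% and 6.63% of all genes passed.

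Among lineage genes, the 1 called of 15 CD8 genes was Itgae (median -0.14), the 1 of 10 CD4 genes was Izumo1r (-0.30), and the 1 of 10 dendritic cell genes was Ccr9 (-0.67), which T cells express as well. In the interferon gamma list the 1 gene called of 30 was Ciita (-0.20). No member passed in the lists for type I interferon (52 tested, median -0.07), cytokine receptors (22, -0.04), inhibitory receptors (12, -0.35), gamma-delta and innate-like T cells (10, -0.07), oxidative phosphorylation (39, 0.05), glycolysis (22, 0.11), antioxidant enzymes (22, -0.18) or platelets (11, -0.20). The 12 tested neighbours of Atm on chromosome 9 had none called and a median of 0.11.

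**Figure D4:**
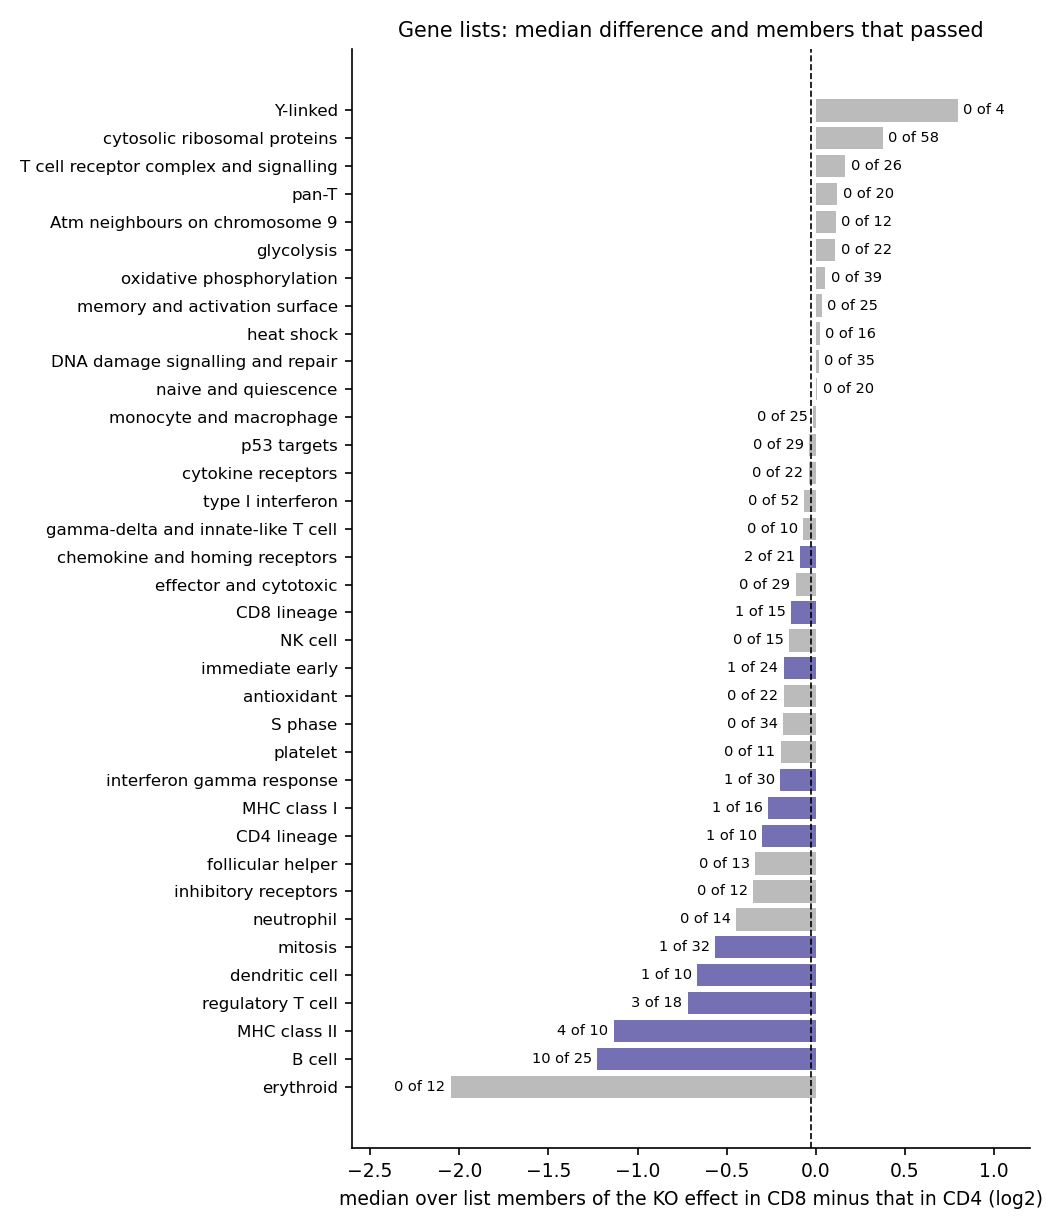
Median over the tested members of each gene list of the KO effect in CD8 minus that in CD4 (log2), with the number of members that passed of the number tested; the dashed line is the median of all genes. B cell, class II and erythroid lists had the lowest medians, and the ribosomal list was the most positive apart from the 4 Y-linked genes.

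The same difference was computed in the 12 libraries of lymphoma mice, which share no library or mouse with the untreated ones. In those mice 0 of 12736 genes passed (0%) in the edgeR test. Without adjustment 454 had a p under 0.05, and DESeq2 called 4. Of the 55 genes called in untreated mice 32 had the same sign there, 13 of them at an unadjusted p under 0.05, where 45.24% of all genes were negative. The genes split by kind. None of the 15 B cell, class II and immunoglobulin genes kept its sign, and their median was 1.57 in lymphoma mice, against -1.59 in untreated mice. Of the other 40 genes 32 kept it, with medians of -1.01 in lymphoma mice and -1.35 in untreated mice. The lymphoma mice had received B-cell lymphoma cells, and the part of these cells in the values of the 15 genes was not tested. Among the 15, Ms4a1 was far higher in CD8 KO lymphoma 1 than in the other libraries, as given below. Of the negative genes, 11 of the 12 with the shared pool order and 18 of the 25 without it were negative in lymphoma mice. Over whole lists, 9 of 18 regulatory T cell genes were above 0 there, with a median of -0.08 against -0.72 in untreated mice. The median was 1.69 against -2.05 for erythroid genes and 0.21 against -0.56 for mitosis genes. Ribosomal genes stayed positive in 52 of 58, with a median of 0.17.

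Itgae in lymphoma mice had 5.56, 11.7 and 4.22 CPM in CD8 KO and 28.3, 22.6 and 18.5 CPM in CD8 WT libraries, and 6.56, 3.94 and 5.31 CPM in CD4 KO and 2.92, 2.58 and 1.38 CPM in CD4 WT libraries. KO was again below WT in CD8 and above WT in CD4, with a difference of -2.96 ± 0.51, unadjusted p = 0.000253. Ccr9 had 33.3, 76.0 and 26.0 CPM in CD8 KO and 250.4, 188 and 174 CPM in CD8 WT libraries, and 12.1, 21.1 and 5.42 CPM in CD4 KO and 22.2, 17.1 and 16.8 CPM in CD4 WT libraries. KO libraries were below all WT libraries in CD8, and in CD4 the highest KO value lay among the WT values. The difference was -1.58 ± 0.21, unadjusted p = 2.53e-05. Other values were -1.27 ± 0.19, unadjusted p = 7.69e-05 for Kcna2, 1.32 ± 0.33, unadjusted p = 0.0027 for Itm2a, 1.01 ± 0.32, unadjusted p = 0.0112 for 1700025G04Rik, -1.33 ± 0.45, unadjusted p = 0.0225 for Ikzf2 and -0.54 ± 0.21, unadjusted p = 0.0295 for Izumo1r. For Bcl2 it was 0.35 ± 0.29, unadjusted p = 0.25. Ms4a1 had 200, 40.0 and 2.11 CPM in CD8 KO and 26.3, 2.82 and 3.31 CPM in CD8 WT libraries, and 15.4, 9.13 and 5.42 CPM in CD4 KO and 24.5, 8.30 and 6.21 CPM in CD4 WT libraries. CD8 KO lymphoma 1 was far above the other libraries, and the difference was 2.64 ± 1.42, unadjusted p = 0.128. Crtc2 had 0.404, 2.98 and 0.373 CPM in CD8 KO and 29.8, 25.1 and 16.0 CPM in CD8 WT libraries, and 37.5, 0.519 and 29.1 CPM in CD4 KO and 34.4, 2.13 and 2.35 CPM in CD4 WT libraries. Its values were low in every CD8 KO library and varied more than 10-fold within both CD4 groups, and the difference was -5.30 ± 2.65, unadjusted p = 0.109.

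**Figure D5:**
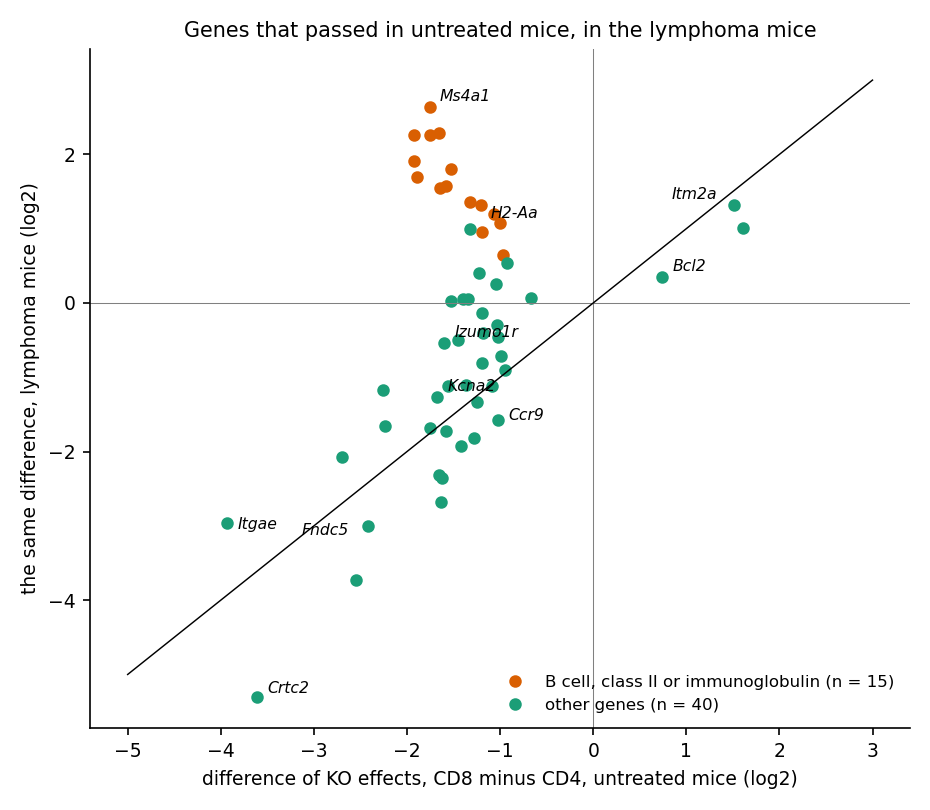
For the 55 genes that passed in untreated mice, the KO effect in CD8 minus that in CD4 (log2) in untreated mice on the x axis and in lymphoma mice on the y axis; the line marks equal values. The 15 B cell, class II and immunoglobulin genes lie above 0 on the y axis, and 32 of the other 40 genes have the same sign on both axes.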

How the data were processed

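Libraries were made from 3′ ends of poly(A) RNA (QuantSeq 3′ FWD), per the labels' protocols. The deposited values are estimated counts per gene, which the authors made with Salmon 0.11.3 per the submitters' processing notes. Those notes name GRCh38 although the samples are from mouse, with its role not given in the sources used here. Estimated counts were rounded to whole numbers, and 2 genes with a cell that held a letter were left out.

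Counts were analysed in edgeR 4.0.16 (R 4.3.3) with trimmed-mean scaling and the default filter on low counts (filterByExpr), which left 12677 genes, and robust quasi-likelihood tests with Benjamini-Hochberg adjustment at 0.05. The difference of differences was fitted with 6 pools as blocks and 4 residual degrees of freedom. The pairing comes from the mouse identifiers in the labels, and the residuals of the CD8 and CD4 library of a pool correlated at 0.088 to 0.406. KO against WT was fitted on group means of the same 12 libraries, with 8 residual degrees of freedom. Standard errors were derived from each test's p and degrees of freedom, and ratios within a pool used a prior count of 2. Scripts were tested on simulated data.

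Alternatives were DESeq2 1.42.0, limma 3.58.1 (voom), other scalings and filters, all 24 libraries, a B cell score, no block, and each pool left out. The members and the 36 gene lists were chosen with earlier results of these data known, and the lymphoma comparison was added after the data were seen. Named genes were the label checks, up to 12 genes per direction with the largest differences or smallest p at a mean of at least 5 CPM, up to 3 genes per list, and the genes that passed, less 1 that is not reported here; D830030K20Rik and 1700025G04Rik, which the rule by size leaves out as unnamed loci, and Itgb7 and Foxp3 were taken up after their values were seen. Depth limits precision for genes of a few CPM.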

Additional observations from a re-analysis of the deposited data

Results flagged for a closer look

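The KO effect differed between CD8 and CD4 cells of untreated mice for 55 genes by the test of the difference itself (edgeR, adjusted p under 0.05). Among the named genes outside the unnamed loci, the log2 differences of the KO effect, CD8 minus CD4, were 1.51 for Itm2a and 0.74 for Bcl2 on the positive side. On the negative side they were -3.93 for Itgae, -3.61 for Crtc2, -2.55 for Ccdc50-ps, -2.42 for Fndc5, -2.26 for Eng, -2.24 for Gpr55, -1.90 for Ebf1, -1.76 for Ly6d, -1.76 for Ms4a1, -1.67 for Kcna2 and -1.66 for Mrps28. Of these 13 genes, Itgae, Ebf1, Ly6d and Ms4a1 passed in every fit that left out 1 pool.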

How the results depend on the processing

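The count of 55 genes was 170 with no filter on low counts, 132 with DESeq2, 176 with limma voom, 8 with all 24 libraries in 1 fit, 1 with the B cell score as a covariate and 10 with no replicate block, and ran from 12 to 135 when 1 pool was left out. Size factors (52), upper-quartile scaling (43) and a stricter filter (63) moved it less. CD8 against CD4 in KO mice called 2460 genes with voom, 1 with the B cell score and 958 with no replicate block, and 544 to 1704 without 1 pool; in WT mice the range was 348 to 1033. KO against WT in CD8 cells called 740 genes with DESeq2, 440 with voom, 90 with all 24 libraries, 130 with only the 6 libraries compared and 363 with a replicate block on the number, and 46 (without KO pool 3) to 357 without 1 pool. In CD4 cells the counts were 1502, 1893 and 285 with DESeq2, voom and all 24 libraries, and 26 (without KO pool 3) to 858 without 1 pool. In lymphoma mice, 6 genes passed with no filter, 4 with DESeq2, 4 with all 24 libraries, 2 with the B cell score and 0 to 13 without 1 pool.

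With the B cell score as a covariate the differences turned positive for Fndc5 (0.75), Car12 (0.30), Cd22 (0.16), Cd72 (0.017), Iglc2 (0.26), Mef2c (0.43), Mzb1 (0.73) and Spib (0.43). The score's ratios separate KO from WT pools, so that fit removes most of the contrast by construction. For 47 of the 55 genes the sign was the same in every setting. The causes of the other shifts were not tested. Libraries that share a replicate number across genotypes correlated at -0.044 to 0.172, so the number was not taken to pair KO with WT pools.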
